A study of Mus musculus with 8 samples.

Results

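The nuclear genes described here encode assembly factors of the mitochondrial respiratory chain and ATP synthase, proteins that help build the complexes without being part of the finished enzymes. They were chosen by gene symbol: the numbered Ndufaf, Sdhaf, Uqcc, Atpaf and Coa families, the haem and copper factors of the Cox, Sco and Surf names, and Bcs1l, Timmdc1, Tmem126b, Foxred1 and Nubpl. The rule selected 38 of 54091 gene rows. No expression value entered it, but it was chosen with earlier results of these data known. All 38 passed the filter on low values that left 13141 genes for testing. Of the 38, 11 serve complex I, 4 complex II, 4 complex III, 17 complex IV and 2 the ATP synthase.

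RNA-seq was done on white quadriceps, a thigh muscle of mainly fast glycolytic fibres, from 8 male mice aged 11 to 14 weeks that had all been fasted overnight for 14 h. In one group 4 mice carried loxP-flanked Acot2 alleles (floxed controls 1 to 4), and in the other 4 mice were labelled CKM Cre with Acot2 knocked out in muscle (knockouts 5 to 8). The muscle creatine kinase promoter drives Cre in muscle fibres, so other cells of the tissue keep the gene. Each library has its own mouse number in its title, and the numbers pair no mice. Mice with Cre and no floxed allele were not analysed here, so effects of Cre and of Acot2 loss cannot be told apart.

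Each respiratory complex is put together in the mitochondrial inner membrane from subunits encoded in the nucleus and, except for complex II, in mitochondrial DNA. Assembly factors hold unfinished modules in place, insert haem, copper, flavin and iron-sulphur clusters, modify subunits and link synthesis of the mitochondrially encoded subunits to their use. In muscle the finished chain oxidises NADH and FADH2 from fatty acid and carbohydrate breakdown. Acot2 is a mitochondrial matrix enzyme that releases free fatty acids from their long-chain coenzyme A esters.

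Reads on genes numbered 28659632 to 40977866 per library. Values below are normalized counts, meaning read counts divided by 1 size factor per library, and differences are knockout minus control on the log2(normalized count + 1) scale. Acot2 (chr12:83987861-83993873, plus strand, GRCm38) had 1675, 3927, 2492 and 1530 normalized counts in controls 1 to 4 and 413, 312, 600 and 543 in knockouts 5 to 8. The groups did not overlap, and the knockout mean of 467 ± 130 (SD, n = 4) was 19.4% of the control mean of 2406 ± 1099 (SD, n = 4). The difference of -2.30 (SE 0.287) had a p of 0.0286 in an exact permutation test (two-sided, the smallest that 70 assignments allow) and an adjusted p of 0.087 in limma. No gene passed an adjusted p of 0.05 (0% of 13141), while 810 had an unadjusted p under 0.05. The fast-fibre myosin Myh4 gave 4.46% to 8.20% of normalized counts. Slow myosin Myh7 was low, at 12.2 to 303 normalized counts. The summed level of 7 slow or oxidative fibre markers ranged from 5658 to 20426 in controls and from 5399 to 61399 in knockouts, with knockout 7 highest and knockout 8 lowest. Myh2 made up most of that sum. The mean log2 level of these markers, which weights them equally, was 7.17, 5.71, 6.68 and 5.22 in controls 1 to 4 and 7.55, 8.00, 8.68 and 5.68 in knockouts 5 to 8. Of the 7, 6 had higher knockout means (median 1.25), and for Myl3, at 2.89 (SE 0.775), all 4 knockouts exceeded every control, with an adjusted limma p of 0.746. The sum of 5 macrophage markers was 789 to 1422 in controls and 1331 to 2235 in knockouts, and that of 5 endothelial markers 4699 to 5848 and 5396 to 6980. All 5 macrophage markers had higher knockout means (median 0.55), and 4 endothelial ones (median 0.24). The mean log2 level of the macrophage markers exceeded every control in all 4 knockouts, in knockout 8 narrowly (7.099 against 7.095 in control 2). No adjusted limma p of either set was below 0.746. Lep, an adipocyte gene, was the only marker at 0 in any library, in 5 of them. The titin gene Ttn took 12.8%, 11.8%, 12.2% and 14.9% of normalized counts in controls 1 to 4 and 13.9%, 8.67%, 8.34% and 9.22% in knockouts 5 to 8. The part of these differences in the results below was not tested. In bulk tissue, fewer cells of a type and less RNA per cell cannot be told apart.

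Transcripts of the assembly factors had higher mean levels in the knockouts for 35 of 38 genes, by a median of 0.21 on the log2 scale, but none passed the test. Over all tested genes the difference was above 0 in 50.6% and its median was 0.0031. The adjusted limma p of the members ran from 0.746 to 0.997. An unadjusted p under 0.05 was found for 7 members, all with higher knockout values: Uqcc1, Ndufaf1, Coa7, Uqcc3, Sdhaf3, Nubpl and Sdhaf4. Of all tested genes, 2.47% had such a p in that direction. The 3 members with lower knockout means were Coa4 at -0.16, Atpaf2 at -0.020 and Cox19 at -0.015. The signs of the last 2 depended on the scaling: with every library set to an equal total the differences were 0.021 for Atpaf2 and 0.026 for Cox19, and with upper-quartile factors Cox19 was at 0.00032.

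**Figure D1:**
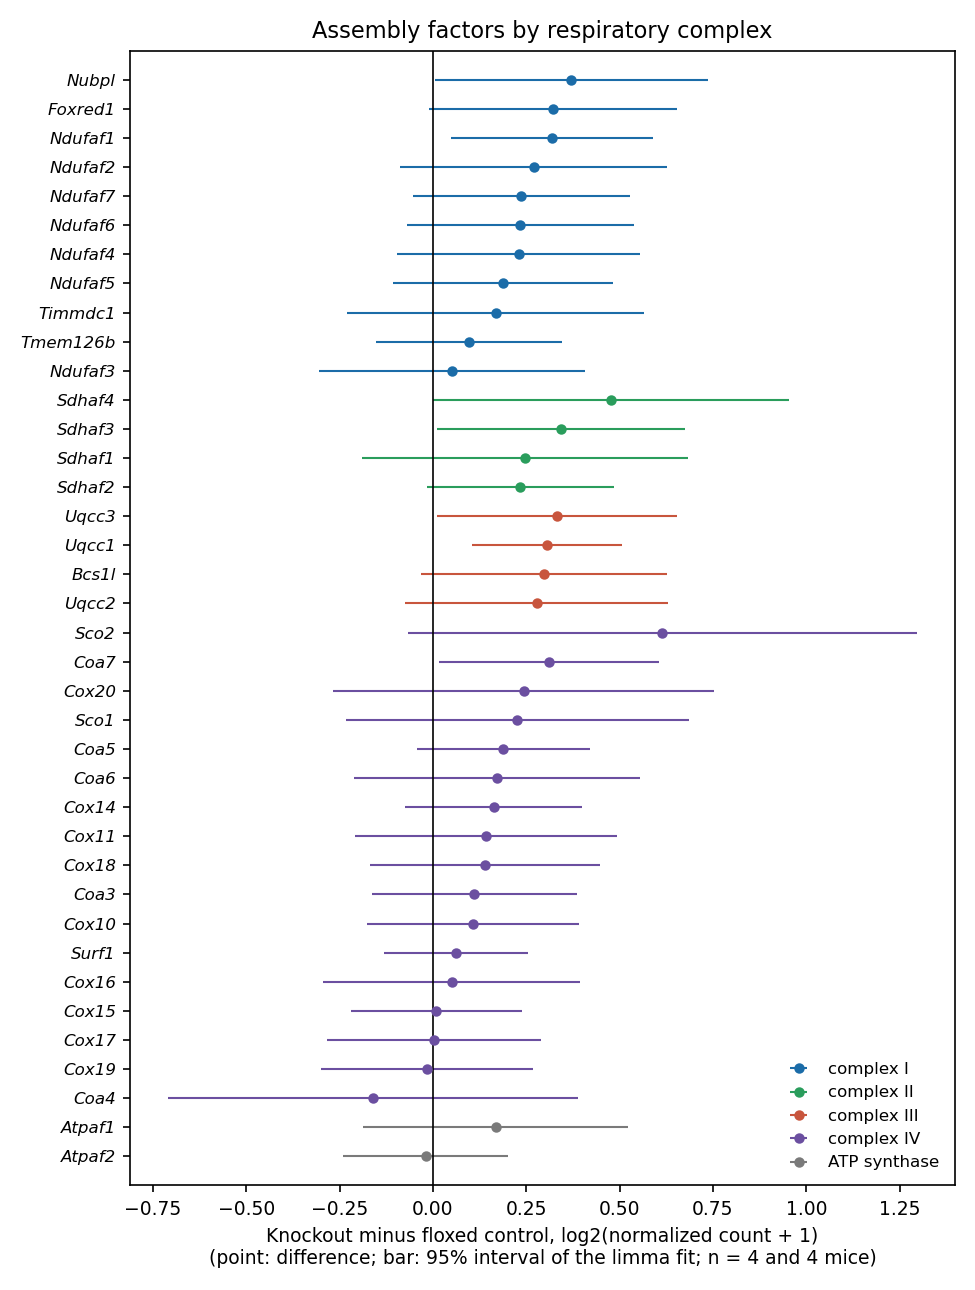
Difference in log2(normalized count + 1), knockout minus floxed control, for each of the 38 assembly factors, with the 95% interval of the limma fit (n = 4 and 4 mice), coloured by complex. Points lie to the right of 0 for 35 genes, and the interval clears 0 for 7, none of which passed adjustment over all genes.

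The knockout mice did not form a uniform group. No member had all 4 knockouts above every control, which is near the share of 1.13% over all tested genes. Exactly 3 knockouts stood above every control in 20 members, against 9.57% of all tested genes. In each of those 20 the remaining mouse was knockout 5, which was also the odd one in 889 of the 1258 genes with that pattern (70.7%). Knockouts 6, 7 and 8 were above every control in 26, 27 and 26 of the 38 members, where the shares over all tested genes were 28.4%, 24.3% and 27.3%. Knockout 5 was above every control in 2 members, Cox18 and Cox19, and below every control in 11, while 16.8% and 18.7% of all tested genes were so. Among the controls, mouse 4 was lowest in 21 of 38. Averaged over the 38 genes, the log2 level was 8.36, 8.38, 8.43 and 8.25 in controls 1 to 4, and 8.24, 8.70, 8.63 and 8.63 in knockouts 5 to 8. Thus knockout 5 and control 4 were both low and 3 knockouts were high. The Ttn share was high in the same 2 mice and low in knockouts 6 to 8.

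Single mice changed the counts. Without knockout 5 the median was 0.32, 37 members had higher means, and 19 had an unadjusted p under 0.05, all higher (8.16% of all tested genes were so). In that fit Uqcc1 and Ndufaf1 had adjusted p of 0.097 and 0.098, and 143 of 13091 genes (1.09%) were under 0.1. Without control 4 the median was 0.15 and 1 member, Uqcc1, kept an unadjusted p under 0.05 (1.13% of all tested genes). Leaving out both mice gave a median of 0.28 and 16 members (5.25% of all tested genes). The median was 0.13 without knockout 6. The number with an unadjusted p under 0.05, all higher, was 5 without control 2 and 6 without control 3, where 2.82% and 2.70% of all tested genes were so. It was 2 without control 1, without knockout 6 or without knockout 8, where the shares over all tested genes were 1.88%, 1.31% and 1.38%. It was 1 without knockout 7, near the share of 2.19% over all genes. The counts of 2 lie above their shares, but counts this small were not tested against them. Leaving out 1 mouse moved the difference by over 1.5 times for 27 of the 38 members, and the other 11 were Coa5, Coa7, Foxred1, Ndufaf1, Nubpl, Sco2, Sdhaf2, Sdhaf3, Sdhaf4, Uqcc1 and Uqcc3.

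**Figure D2:**
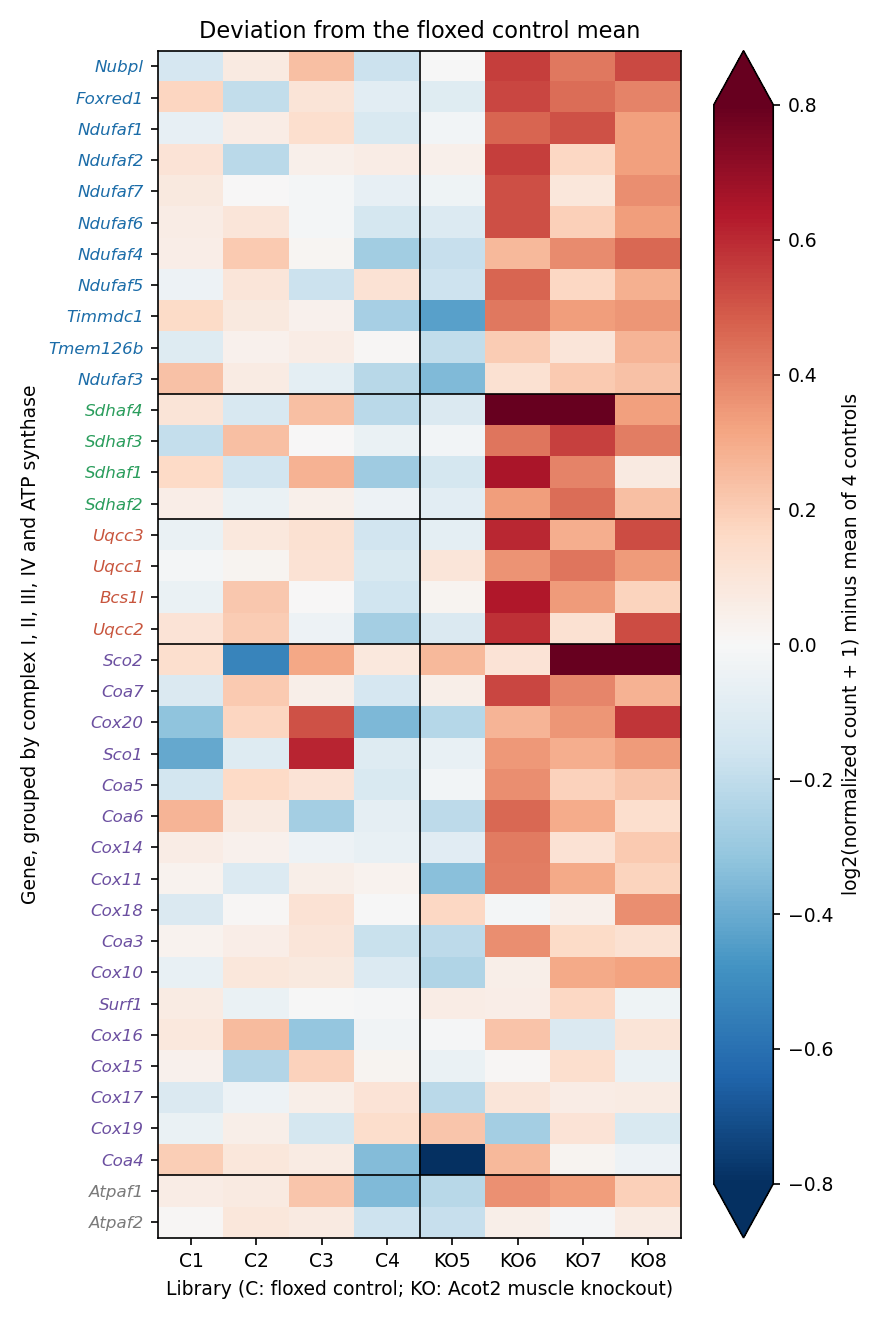
Log2(normalized count + 1) of each assembly factor in each library, minus the mean of the 4 floxed controls, with genes grouped by complex and red for values above that mean. Columns KO6, KO7 and KO8 are mostly red, and columns KO5 and C4 are mostly blue or pale.

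Promoter stretches are shown for members of several complexes as a description of the letters near their start sites. Whether these letters relate to the levels in the mice was not tested. RefSeq promoter windows (GRCm38.p6, from upstream of the annotated start to just inside the transcript) were matched for 34 of the 38 members. The windows of 14 of the 34 (41.2%) hold the ETS motif CCGGAAG on either strand, as do 19.8% of the 9825 tested genes with a window and 8.86% of all 32851 windows. The 14 include matches just inside the transcript, which are the only ETS matches of Cox14, Cox15, Sdhaf1 and Surf1. In the lines below capitals mark the ETS motif, and each stretch is written on the strand of its gene.
Ndufaf1: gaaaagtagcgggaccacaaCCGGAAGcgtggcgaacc
Sdhaf3: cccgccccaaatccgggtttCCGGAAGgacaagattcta
Bcs1l: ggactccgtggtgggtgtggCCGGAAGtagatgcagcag
Cox10: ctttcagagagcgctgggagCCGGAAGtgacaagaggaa
Sco1: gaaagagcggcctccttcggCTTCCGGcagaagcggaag
Coa4: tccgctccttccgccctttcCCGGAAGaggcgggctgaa
These lie at chr2:119662835-119662872 (minus strand), chr6:6955871-6955909 (plus), chr1:74588222-74588260 (plus), chr11:64079481-64079519 (minus), chr11:67052605-67052643 (plus) and chr7:100536983-100537021 (plus). In Sco1 the capitals read CTTCCGG, the motif on the opposite strand. The stretch of Bcs1l shares 25 bases with an exon of Zfp142, that of Cox10 shares 36 with an antisense transcript and that of Sdhaf3 shares 30 with a long non-coding RNA, all on the other strand, while the others lie in no annotated gene. The motif ends 12 bases before the start in Ndufaf1 and 121 before it in Sdhaf3.

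The NRF1 motif, GCGCA and GCGC with any 1 base between them, was in 5 of 34 windows (14.7%, against 11.5% of tested genes), namely Ndufaf4, Ndufaf5, Sdhaf3, Sdhaf4 and Uqcc2. In Ndufaf5 and Sdhaf4 the NRF1 match lies inside the transcript, and in Sdhaf3 it spans the start. The ERR motif AAGGTCA was in 1 (2.94% against 3.93%), that of Uqcc3. Capitals mark the NRF1 motif in the first 2 lines and the ERR motif in the third.
Ndufaf4: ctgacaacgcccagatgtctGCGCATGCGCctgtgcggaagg
Uqcc2: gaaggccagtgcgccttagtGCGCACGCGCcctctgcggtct
Uqcc3: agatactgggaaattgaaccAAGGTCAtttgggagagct
These stretches are at chr4:24897950-24897991 (plus strand), chr17:27133918-27133959 (minus) and chr19:8881052-8881090 (minus), in no annotated gene. The YY1 motif AAGATGG was in 5 windows (14.7% against 8.41%) and the SP1 motif GGGCGG in 28 (82.4% against 68.8%), also on either strand. No overlap between copies of different motifs was removed. Members with the ETS motif had a median difference of 0.20 (14 genes) and those without it 0.23 (20 genes). The medians with and without were 0.28 (5) and 0.19 (29) for NRF1, 0.11 (5) and 0.23 (29) for YY1, and 0.24 (28) and 0.18 (6) for SP1. A match describes the letters and shows no binding.

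Complex I oxidises NADH, and 11 of its factors were measured. Every one had a higher knockout mean, with a median difference of 0.23 (0.14 without knockout 6). In 10 of the 11, knockouts 6, 7 and 8 exceeded every control and knockout 5 did not, as in 889 of the 13141 tested genes. The exception was Ndufaf3. Ndufaf1 works with Tmem126b and Timmdc1 on the membrane arm. Normalized counts of Ndufaf1 were 705, 769, 810 and 678 in controls 1 to 4 and 727, 1021, 1051 and 926 in knockouts 5 to 8. Knockout 5 lay among the controls and the other knockouts above all of them. The difference was 0.32 (SE 0.123), with an unadjusted p of 0.0250 and an adjusted limma p of 0.746. Its ETS-bearing promoter stretch is the first of those printed above. Timmdc1 had 696, 661, 640 and 521 in the controls and 462, 838, 791 and 799 in the knockouts. Here knockout 5 was the lowest of all 8 mice, and the difference was 0.17 (SE 0.181). It was 0.37 without knockout 5 and 0.080 without control 4. Tmem126b differed by 0.096 (SE 0.113), with knockout 5 again below every control at 425 normalized counts.

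Nubpl, which delivers iron-sulphur clusters to complex I, had the largest difference of these 11 genes. Its normalized counts were 120, 139, 156 and 117 in controls 1 to 4 and 132, 194, 177 and 191 in knockouts 5 to 8. Knockouts 6 to 8 exceeded every control and knockout 5 sat at the control mean of 133 ± 18.2 (SD, n = 4). The difference was 0.37 (SE 0.166), with an adjusted limma p of 0.746. Foxred1, an oxidoreductase-like factor, had 366, 283, 349 and 306 in the controls and 303, 471, 442 and 428 in the knockouts, a difference of 0.32 (SE 0.151). Ndufaf3 and Ndufaf4 help build the module that binds ubiquinone. Ndufaf4 had 951 ± 131 normalized counts in controls and 1123 ± 206 in knockouts (SD, n = 4), a difference of 0.23 (SE 0.148). Ndufaf3 had 236, 210, 190 and 172 in the controls and 157, 218, 232 and 236 in the knockouts. These groups overlapped, and the difference was 0.052 with a 95% interval from -0.30 to 0.41.

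The methyltransferase Ndufaf7 and the hydroxylase Ndufaf5 each modify an arginine of a complex I subunit. Their differences were 0.24 (SE 0.132) and 0.19 (SE 0.134). Ndufaf6 differed by 0.23 (SE 0.138). Ndufaf2, a paralogue of a complex I subunit that acts late in assembly, was at 98.5 ± 9.61 normalized counts in controls and 120 ± 18.6 in knockouts (SD, n = 4), a difference of 0.27 (SE 0.163). A gene on the opposite strand covers 65.6% of the annotated exon bases of Ndufaf2. It averaged 0.536 normalized counts in controls.

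Complex II, succinate dehydrogenase, has 4 factors, whose differences ran from 0.23 to 0.48 with a median of 0.29. Knockouts 6 to 8, and not knockout 5, were above every control in 3 of them, all but Sdhaf1, against 889 of the 13141 tested genes. Sdhaf4 binds the flavin-bearing subunit Sdha and had the largest difference of the 4. Normalized counts of Sdhaf4 were 169, 144, 186 and 135 in controls 1 to 4 and 145, 281, 286 and 198 in knockouts 5 to 8. Knockouts 6 and 7 were far above the controls, knockout 8 just above them and knockout 5 within them. The difference was 0.48 (SE 0.216), with an unadjusted p of 0.0499 and an adjusted limma p of 0.746. Sdhaf3, which helps place iron-sulphur clusters in Sdhb, had 187, 252, 214 and 206 in the controls and 210, 288, 313 and 284 in the knockouts. The difference was 0.34 (SE 0.151), and knockout 5 again fell inside the control range.

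Sdhaf2 attaches the flavin to Sdha and had the smallest ratio of highest to lowest control, at 757, 704, 750 and 711 normalized counts. The knockouts had 689, 920, 997 and 862, so knockout 5 was just below and the others well above the controls. The difference was 0.23 (SE 0.113). Sdhaf1, an iron-sulphur factor for Sdhb like Sdhaf3, had 154, 124, 167 and 113 in the controls and 125, 217, 182 and 145 in the knockouts, a difference of 0.25 (SE 0.198). Its only exon shares 69.6% of its bases with a gene on the opposite strand that averaged 4.13 normalized counts in controls.

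Complex III passes electrons from ubiquinol to cytochrome c, and its 4 factors differed by 0.28 to 0.33, with a median of 0.30. Uqcc1 and Uqcc2 bind newly made cytochrome b, the subunit encoded in mitochondrial DNA. Uqcc1 had 2519, 2587, 2762 and 2344 normalized counts in controls 1 to 4 and 2721, 3271, 3434 and 3224 in knockouts 5 to 8. Even knockout 5 was above 3 of the 4 controls here. The difference was 0.31 (SE 0.0910, 95% interval 0.11 to 0.51), and its unadjusted p of 0.00639 was the smallest of the 38, with an adjusted limma p of 0.746. Uqcc2 had 1549, 1650, 1394 and 1186 in the controls and 1321, 2147, 1563 and 2061 in the knockouts. Knockouts 6 and 8 stood above the controls and 7 did not, and the difference was 0.28 (SE 0.160).

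Uqcc3 also acts on cytochrome b. Normalized counts of Uqcc3 were 440, 486, 497 and 412 in the controls and 433, 694, 560 and 657 in the knockouts. The difference was 0.33 (SE 0.146), with knockout 5 at the low end of the controls and the rest above them. Bcs1l moves the Rieske iron-sulphur protein Uqcrfs1 into the complex. It had 225, 272, 234 and 209 in the controls and 238, 366, 296 and 265 in the knockouts, a difference of 0.30 (SE 0.149). Knockout 8 fell below control 2, so the overlap was larger than in Uqcc1.

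**Figure D3:**
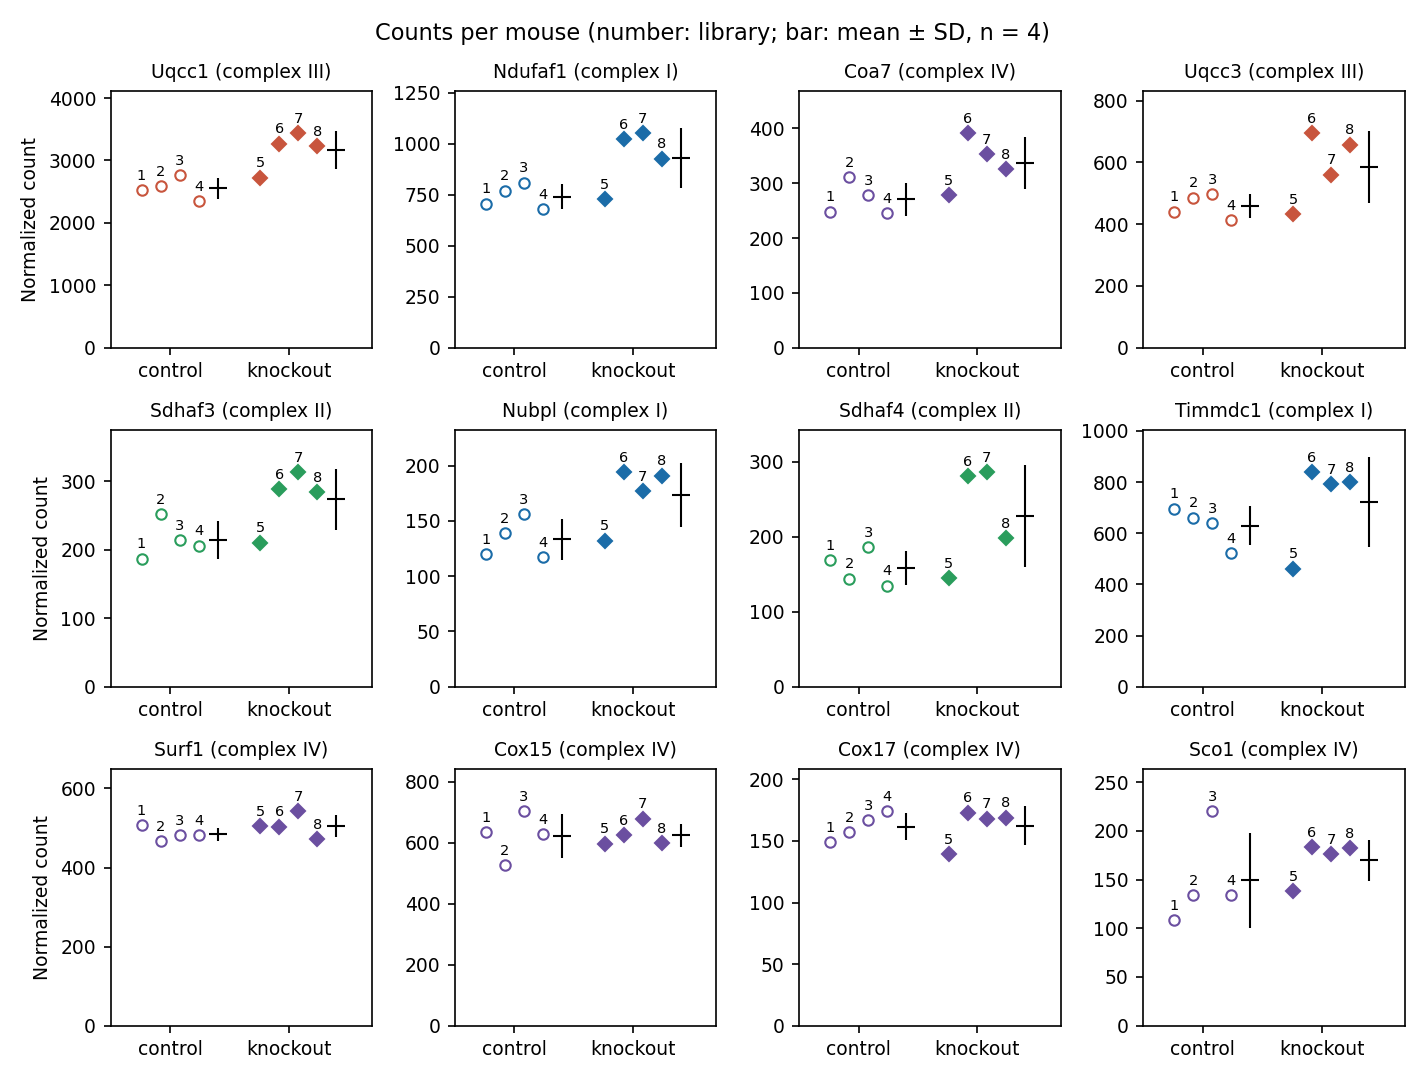
Normalized counts of 12 assembly factors in each mouse (open circles, floxed controls 1 to 4; filled diamonds, knockouts 5 to 8), with bars for the mean ± SD (n = 4) and axes from 0. In the first 8 genes knockouts 6 to 8 lie above every control and knockout 5 does not, while Surf1, Cox15 and Cox17 have nearly level means and control 3 stands alone in Sco1.

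Complex IV, cytochrome c oxidase, has 17 factors here, of which 15 had higher and 2 lower knockout means, with a median difference of 0.14 (0.22 without knockout 5, 0.074 without knockout 6). Knockouts 6 to 8, and not knockout 5, exceeded every control in 5 of the 17: Coa3, Coa5, Coa7, Cox11 and Cox14. That pattern was found in 889 of the 13141 tested genes. Coa7, a soluble protein of the intermembrane space, had the smallest unadjusted p of this group. It had 248, 311, 278 and 245 normalized counts in controls 1 to 4 and 278, 391, 353 and 326 in knockouts 5 to 8. Only knockout 5 lay within the controls. The difference was 0.31 (SE 0.134), with an unadjusted p of 0.0403 and an adjusted limma p of 0.746. Coa5 had 2455 ± 265 in controls and 2800 ± 312 in knockouts (SD, n = 4), a difference of 0.19 (SE 0.105).

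Haem A of cytochrome c oxidase is made by Cox10 and then Cox15, and Surf1 acts in its insertion. Cox10 had 582, 646, 640 and 563 normalized counts in the controls and 513, 626, 749 and 758 in the knockouts, a difference of 0.11 (SE 0.129). Cox15 had 634, 527, 703 and 628 against 597, 625, 679 and 598. Its group means were nearly level, and the difference was 0.0093 with a 95% interval from -0.22 to 0.24. Surf1 had 507, 466, 482 and 481 in the controls and 504, 503, 542 and 472 in the knockouts. Its mice were close together in both groups, and the difference of 0.061 had an interval from -0.13 to 0.25. For Cox15 and Surf1 the intervals still include the median of the 38 genes.

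Copper reaches the oxidase through Cox17, which hands it to Sco1, Sco2 and Cox11. Cox17 had 149, 157, 167 and 174 normalized counts in the controls and 139, 173, 168 and 169 in the knockouts. Knockout 5 was lowest and the others matched the upper controls, with a difference of 0.0023 and an interval from -0.28 to 0.29. Sco1 had 108, 134, 220 and 134 against 138, 183, 176 and 182. Control 3 exceeded every knockout, and the difference was 0.23 (SE 0.208), from 0.091 without control 1 to 0.43 without control 3. Sco2 had 32.2, 20, 36.5 and 31.1 against 35.2, 31.6, 54.9 and 69.0. Its difference of 0.61 was the largest of the 38, but with an SE of 0.310 and an unadjusted p of 0.0730 (adjusted limma p of 0.746) at these low counts. Exons of Ncaph2 on the opposite strand cover 66.2% of the exon bases of Sco2, and Ncaph2 had 1218 ± 10.1 normalized counts in controls and 1360 ± 124 in knockouts (SD, n = 4). Tymp covers 68.3% on the same strand, at 3.12 ± 0.339 in controls and 1.22 ± 1.43 in knockouts (SD, n = 4). Whether the counting used strand is not given in the sources used here, so how reads in opposite-strand overlaps were counted is not known. What overlaps on either strand do to these counts was not tested. Cox11 had 216 ± 10.5 in controls and 242 ± 50.3 in knockouts (SD, n = 4), a difference of 0.14 (SE 0.159), and 48.3% of its exon bases overlap Tom1l1 on the opposite strand. Coa6, another factor of the copper site, differed by 0.17 (SE 0.174).

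Coa3 and Cox14 hold newly made COX1, the catalytic subunit encoded in mitochondrial DNA. Cox14 had 937, 922, 874 and 863 normalized counts in the controls and 844, 1199, 973 and 1040 in the knockouts, a difference of 0.16 (SE 0.107). Coa3 differed by 0.11 (SE 0.125). For both genes knockout 5 was below every control and the other knockouts above. Cox16, Cox18 and Cox20 act on COX2. Their differences were 0.051 (SE 0.156), 0.14 (SE 0.140) and 0.24 (SE 0.232). Exons of Hnrnpu on the opposite strand cover 91.1% of the exon bases of Cox20, and Hnrnpu differed by -0.30 (SE 0.0916), the opposite sign to Cox20. A gene model on the same strand covers 56.8% of the exon bases of Cox16. Cox19 and Coa4 are small cysteine-rich proteins of the intermembrane space. Cox19 had 328, 352, 309 and 375 in the controls and 396, 281, 367 and 313 in the knockouts, where knockout 5 was the highest of all mice and knockout 6 the lowest. Coa4 had 104, 96.6, 94.9 and 71.1 against 48.7, 109, 92.2 and 88.3. Its difference of -0.16 (SE 0.250) was the lowest of the 38, and without knockout 5 it was 0.082.

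The ATP synthase factors Atpaf1 and Atpaf2 bind free beta and alpha subunits of the catalytic head. Atpaf1 had 389, 392, 435 and 291 normalized counts in controls 1 to 4 and 319, 481, 471 and 425 in knockouts 5 to 8. Control 4 and knockout 5 were the low mice, and the difference was 0.17 (SE 0.161). Atpaf2 had 507, 537, 530 and 449 in the controls and 444, 521, 502 and 528 in the knockouts, with the same 2 mice lowest. Its difference was -0.020, with an interval from -0.24 to 0.20. The median of the pair was 0.074, and without control 4 it was -0.013.

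Among nuclear-encoded subunits of the same complexes, knockouts 6 to 8 were high and control 4 and knockout 5 low, as in the plot of means by complex. Of 76 nuclear subunits tested, 75 had a higher knockout mean, with a median of 0.25 (0.16 without control 4, 0.38 without knockout 5). An unadjusted limma p under 0.05 was found for 19, all higher, where 2.47% of all tested genes were so. None passed adjustment. By complex the subunit medians were 0.25 for complex I (35 of 35 higher), 0.29 for complex II (4 of 4), 0.33 for complex III (9 of 9), 0.25 for complex IV (12 of 12) and 0.25 for the ATP synthase (15 of 16). The matching assembly factor medians, in the same order, were 0.23, 0.29, 0.30, 0.14 and 0.074. The gap between subunits and factors of complex IV was not tested, because single lists have no test here. Genes with the smallest p of each subunit list were Ndufb5 at 0.42 (SE 0.163), Sdhb at 0.40 (SE 0.167), Uqcrfs1 at 0.37 (SE 0.146), Cox7a1 at 0.29 (SE 0.134) and Atp5g3 at 0.39 (SE 0.157). Of the 13 protein-coding genes of mitochondrial DNA, 11 passed the filter, all with higher means, a median of 0.21 and no unadjusted p under 0.05. Their mean in knockout 5 was 0.10 above the control mean, and that of knockout 8 (12.48) was below control 2 (12.49), so the order of mice differed from that of the nuclear genes. ND2 had the smallest p among them, at 0.20 (SE 0.122).

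In knockouts 6, 7 and 8 the mean of complex IV factors exceeded the control mean by 0.22, 0.22 and 0.23, and that of complex IV subunits by 0.34, 0.37 and 0.34. For complex I the factors were above it by 0.42, 0.27 and 0.35 and the subunits by 0.38, 0.35 and 0.35. In knockout 5 the factors of complexes I to IV and the ATP synthase were at -0.14, -0.090, -0.020, -0.11 and -0.20. Among 27 other assembly genes tested of 28 matched, outside the symbol rule, 24 had higher means, with a median of 0.15. For 3 the unadjusted limma p was under 0.05, all higher, where 2.47% of all tested genes were so. The smallest p was that of Taco1, a translation activator of COX1, at 0.35 (SE 0.135, adjusted limma p of 0.746).

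**Figure D4:**
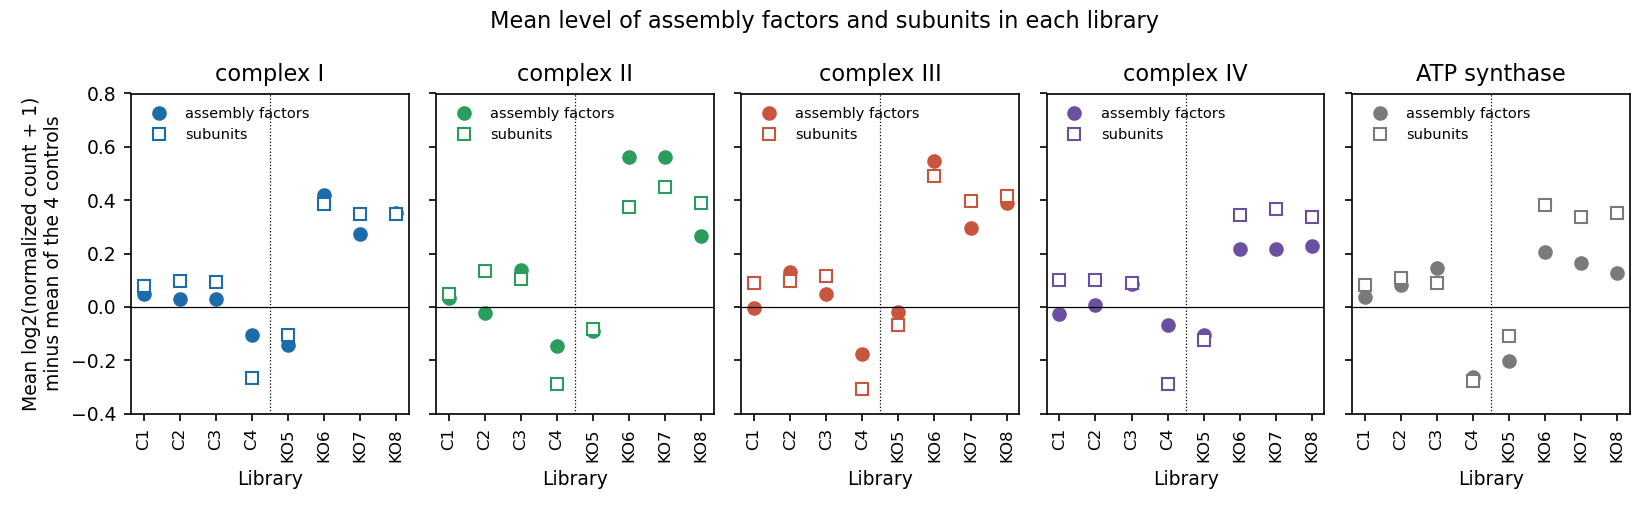
Mean log2(normalized count + 1) of the assembly factors (filled circles) and subunits (open squares) of each complex in each library, minus the mean of the 4 floxed controls. KO6, KO7 and KO8 are above 0 in every panel and C4 and KO5 below, and the circles lie under the squares in KO6 to KO8 for complex IV and the ATP synthase.

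Transcript levels were compared between genes as normalized counts per kb of the principal annotated transcript. Uqcc2 was highest, at 2889 ± 405 per kb in controls (SD, n = 4), followed by Cox14 at 1243 ± 50.1 and Uqcc1 at 970 ± 65.7. Next came Coa3 at 749 ± 60.8 and Coa5 at 636 ± 68.7. At the other end were Sco2 at 26.2 ± 6.13, Cox17 at 43.8 ± 3.00 and Nubpl at 44.6 ± 6.11 per kb. Exons of Tymp and Ncaph2 overlap most of Sco2, and what that does to its count was not tested. Uqcc2 and Cox14 lay further apart than their spread, while Cox17 and Nubpl did not. With all annotated exon bases as the length, Uqcc2 and Cox14 stayed first and second, Cox17 ranked 38 in place of 37, and Ndufaf2 moved from 24 to 34. No length shorter than the principal transcript was tried.

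**Figure D5:**
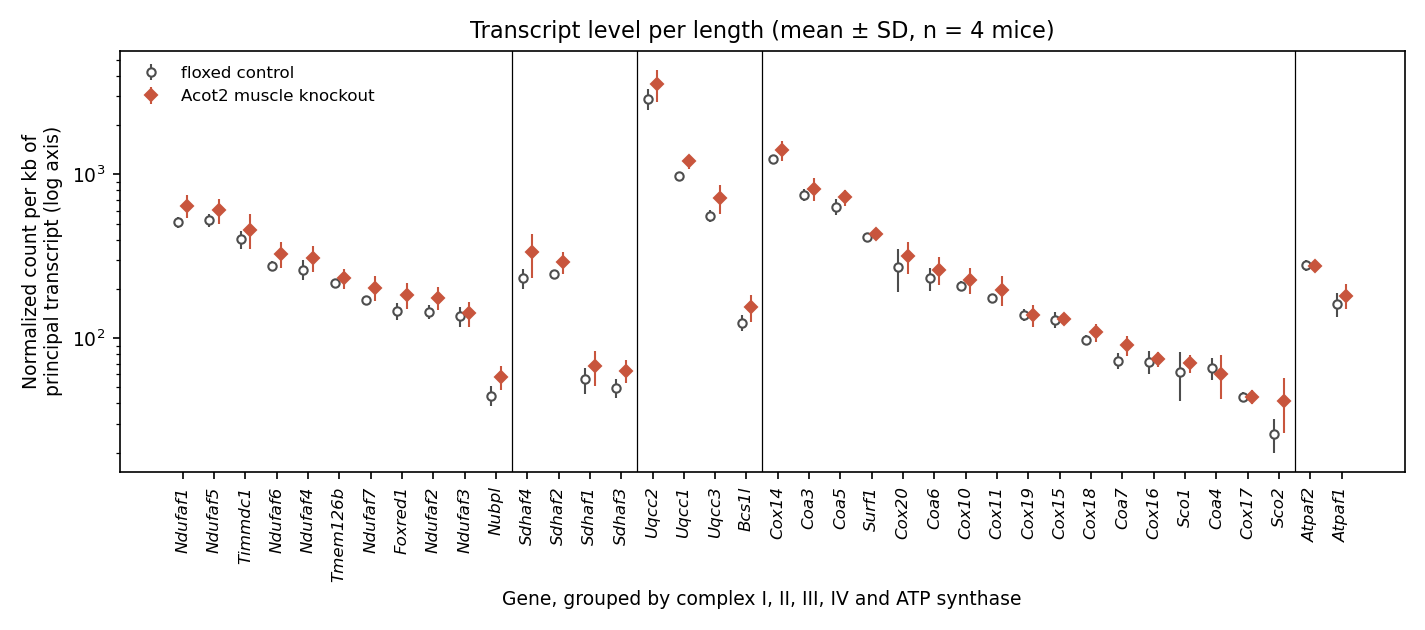
Normalized counts per kb of principal transcript (log axis, mean ± SD, n = 4 mice) of each assembly factor in floxed controls (open circles) and knockouts (filled diamonds), grouped by complex. Uqcc2 is highest and Sco2 lowest, and the distance between genes far exceeds that between groups.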

How the data were processed

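Per the submitters' processing notes, cutadapt, FastQC, STAR, HTSeq and DESeq2 were used with build GRCm38. The sources used here give no versions, annotation release or strand setting. The values deposited by the authors are log2(n + 1), where n is the reads of a gene over the size factor of the library. Of values up to 200 reads, 100% lay within 0.1 of a whole read. Genotype was tested with limma 3.58.1 (R 4.3.3; lmFit, eBayes with trend) on the deposited log2 values of the 13141 genes whose normalized counts averaged 10 or more, with Benjamini-Hochberg adjustment over all of them, and the threshold was an adjusted p of 0.05. SEs and 95% intervals are those of that fit, and unadjusted p are two-sided limma values. The pseudocount of 1 understates changes of low genes. The fit was run on simulated data with independent genes, which cannot show how shifts shared by many genes in a mouse affect it. The members and lists were chosen with earlier results of these data known. The rule for named genes was Acot2, every member (per-mouse values for those with the smallest p, largest difference or extreme level in each complex, and some others chosen after their values were seen), the gene with the smallest p of each list, and Ttn, Myh2 and Myh4. Overlap partners, Myh7, Myl3 and Lep were also named after their values were seen. Of 155 list entries, 3 matched no row. Positions, exon overlaps and lengths are from GENCODE on GRCm38. Alternatives covered pseudocount, filter, 3 rescalings, robust and weighted fits, voom, mouse-number range and left-out mice.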

Additional observations from a re-analysis of the deposited data

Results flagged for a closer look

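On the log2 scale, the gap of the most distant mouse to its nearest neighbour was divided by the range of its group. Of 78 groups of 4 mice (38 members and Acot2 in each genotype), 4 had a ratio above Dixon's 95% critical value for 4 samples. Chance flags about 1 in 20 groups. Knockout 5 was the distant mouse in 3. Timmdc1 had 462 normalized counts in knockout 5 and 791 to 838 in the other knockouts, a ratio of 0.904. Sco1 had 138 in knockout 5 and 176 to 183 in the others (0.861). Cox17 had 139 in knockout 5 and 168 to 173 in the others (0.851). In the floxed controls, Cox11 had 200 normalized counts in control 2 and 220 to 223 in the others (0.850).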

How the results depend on the processing

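Over 19 alternative settings, 31 of 38 members never changed the sign of their difference, and 26 of 721 member values did. The cause of those changes was not tested. With the other filters, the robust fit and the mouse-number covariate, member differences equalled those of the main fit, so no sign could change there. With equal library totals Cox19 was at 0.026 and Atpaf2 at 0.021, with upper-quartile factors Cox19 was at 0.00032, with array weights Atpaf2 was at 0.0045 and Cox15 at -0.00044, and with voom on recovered reads Cox17 was at -0.0079. With no filter 1 gene was called and 1362 had an unadjusted p under 0.05. That number was 1467 with array weights and 1502 without control 4 and knockout 5. Members with an unadjusted p under 0.05, all higher, numbered 15 with array weights and 3 with voom, against 5.07% and 2.30% of all tested genes. They numbered 4 with the mouse-number range as covariate and 16 without control 4 and knockout 5, against 2.17% and 5.25%. The Acot2 difference was -2.30 with the covariate (permutation p 0.05) and -2.44 without those 2 mice (permutation p 0.1), where fewer assignments exist. Of genes with an unadjusted p under 0.05, 40% were higher in the knockout, 66.4% with equal totals and 54.2% with upper-quartile factors. Leaving out 1 mouse at a time gave 368 to 2201 genes and 1 to 19 members with an unadjusted p under 0.05 and a member median of 0.13 to 0.32. Differences then ranged from -0.30 to 0.082 for Coa4, -0.076 to 0.034 for Atpaf2, -0.068 to 0.070 for Cox15, -0.054 to 0.14 for Cox16, -0.036 to 0.075 for Cox17, -0.094 to 0.071 for Cox19 and -0.021 to 0.19 for Ndufaf3. The edgeR test was not run, and voom stood in for it. No paired analysis was made because no label pairs mice across the groups. Counts limit Sco2, with 20 to 69 normalized counts.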

Other observations

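The floxed controls varied unequally from gene to gene. The highest control had 2.03 times the normalized count of the lowest for Sco1, 1.84 times for Cox20 and 1.82 times for Sco2, against 1.08 times for Sdhaf2 and 1.09 times for Cox14 and Surf1. For Sco1 and Cox20 control 3 was highest, at 220 and 176 normalized counts. Control 3 was the highest control in 15 of the 38 members, and control 4 the highest in 3.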
